A study of Homo sapiens with 4 samples.

Results

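The 33 genes described here encode the enzymes, sugar and lactate carriers and regulatory kinases of glycolysis and the pentose phosphate pathway. They were chosen by name, with earlier results of these data known, and all 33 were found among the 28482 genes of the deposited table. They comprise 2 glucose transporters, 9 enzymes that turn glucose into triose phosphate, 3 enzymes that set fructose bisphosphate signalling, 7 enzymes that carry triose phosphate to pyruvate, 6 genes acting on pyruvate and lactate, and 6 enzymes of the pentose phosphate pathway. A gene was tested where it reached 1 CPM (read counts scaled to a common library total) in at least 2 libraries. The filter kept 32 of the 33 genes, and 13296 genes in all.

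RNA was sequenced from K562/G01, an imatinib-resistant derivative of the chronic myeloid leukaemia line K562. The control cells carried a lentiviral scramble hairpin. The knockdown cells carried a lentiviral hairpin against TCF7, a transcription factor of the TCF/LEF family that acts in Wnt signalling. Each was kept untreated or given imatinib, an inhibitor of the BCR-ABL1 kinase, at 1 µM for 48 hours. Each of the 4 groups was 1 library, so the data form an untreated pair and an imatinib-treated pair. The knockdown rests on 1 hairpin construct. The labels do not say whether the cells were clones or pools, or whether the cultures were infected and treated separately. A lasting difference between the scramble and the knockdown culture cannot be told apart from the knockdown.

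Glycolysis splits glucose into pyruvate in the cytosol and yields ATP and NADH, and lactate dehydrogenase regenerates the oxidised cofactor by turning pyruvate into lactate. The pentose phosphate pathway branches off at glucose 6-phosphate and supplies NADPH and ribose phosphate for nucleotides. Many leukaemia cells take up glucose and release lactate even in oxygen. Most steps are encoded by several isozyme genes, which differ in regulation and tissue distribution.

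Library totals lay between 30634832 and 34095585 counts. TCF7 itself was at 10.2 CPM in untreated scramble cells and 2.55 CPM after knockdown, and at 10.8 and 3.69 CPM in the imatinib-treated pair, lower in both knockdown libraries. All 11 genes fixed as markers of K562, among them GATA1, KLF1 and the fetal globin HBG1, passed the filter. Of 10 markers of other lineages, 4 passed it (CD3D, EPCAM, COL1A1 and PECAM1). COL1A1 was called higher in the knockdown libraries, at 1.37 against 0.151 CPM without imatinib and 1.01 against 0.205 CPM under it (not called in DESeq2, adjusted p = 0.138), and PECAM1, at 46.8 against 29.5 CPM and 41.8 against 27.3 CPM, was called lower. The T cell marker CD3E was at 0 counts in 3 of the 4 libraries, whereas the T cell marker CD3D was at 13.96 to 20.76 CPM. EPCAM was at 46.15 to 58.46 CPM, and PAX5, CD14 and FCGR3A reached at most 0.302 CPM. The part of these markers in the results was not tested. In bulk RNA, fewer cells with a transcript and less of it per cell cannot be told apart.

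Differences are given as log2 ratios of CPM normalised by trimmed mean of M-values (TMM), with a prior count of 2. The interval of a single ratio is a 95% exact binomial interval that covers counting error only. With 1 library per group, the test compared both knockdown libraries with both scramble libraries with imatinib as a term, or both imatinib libraries with both untreated ones with knockdown as a term. It was edgeR's quasi-likelihood test with Benjamini-Hochberg adjustment over all tested genes, at an adjusted p under 0.05. Its p-values measure only the spread between these libraries, which may be technical, and no spread between replicates. With 1 residual degree of freedom, a gene's own spread is the difference between its 2 knockdown ratios, moderated over genes. A gene whose knockdown ratio differs with imatinib is therefore harder to call. "Rose" and "fell" are used below only of genes that passed it.

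**Figure D1:**
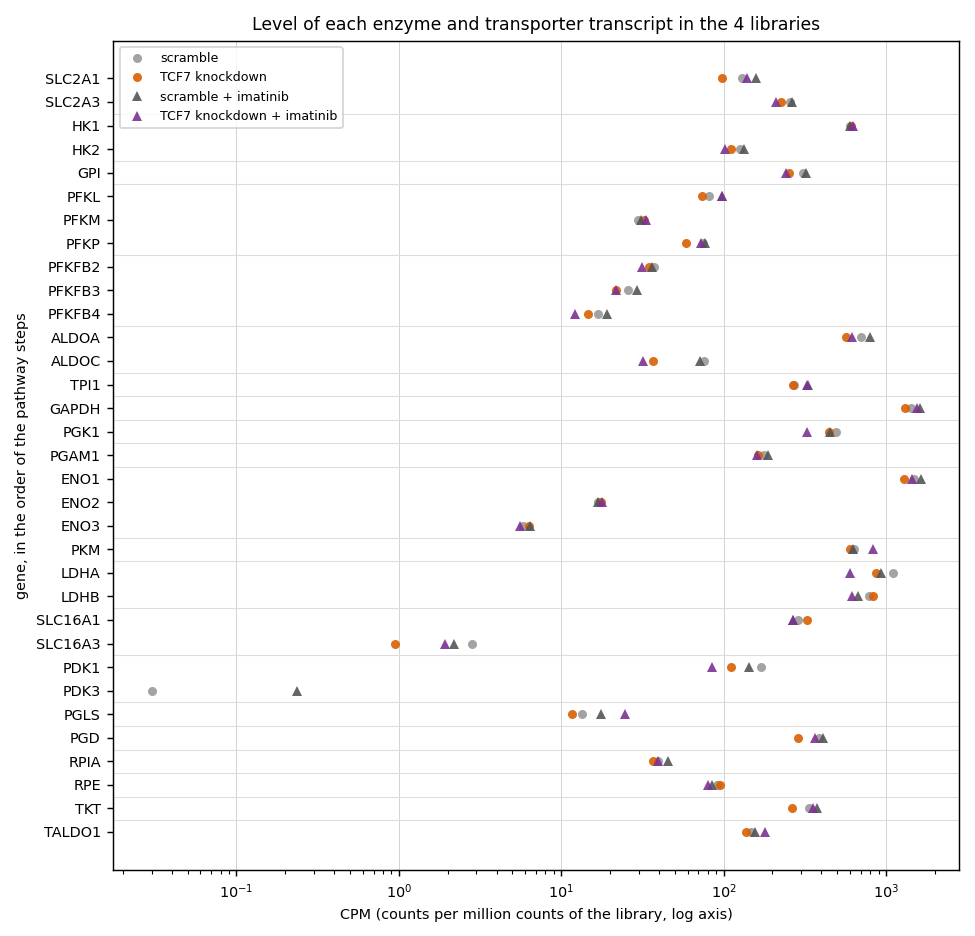
Level of each gene in each of the 4 libraries, in CPM on a log axis, with genes in pathway order. Levels are not scaled by gene length, so heights can be compared between libraries but not between genes, and libraries in which PDK3 had 0 counts are not drawn.

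TCF7 knockdown went with lower levels of glycolytic genes at several steps between glucose uptake and lactate. Of the 32 tested genes, 10 fell, 0 rose and 22 were not called. The 10 were both glucose transporters (SLC2A1 and SLC2A3), HK2, GPI, ALDOA, ALDOC, PGK1, LDHA, PDK1 and PGD. Over all tested genes, 7.14% were called, 3.34% lower and 3.8% higher. In DESeq2 0 of these genes were called higher, and in edgeR 1 (PKM) was higher at an unadjusted p under 0.05. Highly expressed genes are easier to call, and 19 of the 33 genes had a mean of 100 CPM or more. Of those 19, 9 fell and 0 rose, while 4.22% of all 2391 genes at that level were called lower and 3.64% higher. The median log2 ratio over the 32 genes was -0.16 without imatinib and -0.17 under imatinib, and the medians of all tested genes lay between 0 and 0.02.

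Most changes were small. Without imatinib, 3 of the 32 genes were 1.5-fold or more lower (SLC16A3, ALDOC and PDK1), against 5.51% of all tested genes. Under imatinib 4 were (ALDOC, PDK1, LDHA and PFKFB4), against 4.69%. In either comparison 0 were higher by that much, against 3.67% and 5.26% of all genes. The ratio was below 0 in both comparisons for 20 of the 32 genes, against 29.5% of all tested genes, and above 0 in both for 4, against 32.9%. On TMM-normalised values, both knockdown libraries were lower than both scramble libraries for 15 genes, against 15.8% of all tested genes, and higher for 3 (HK1, PFKM and ENO2), against 16.4%.

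**Figure D2:**
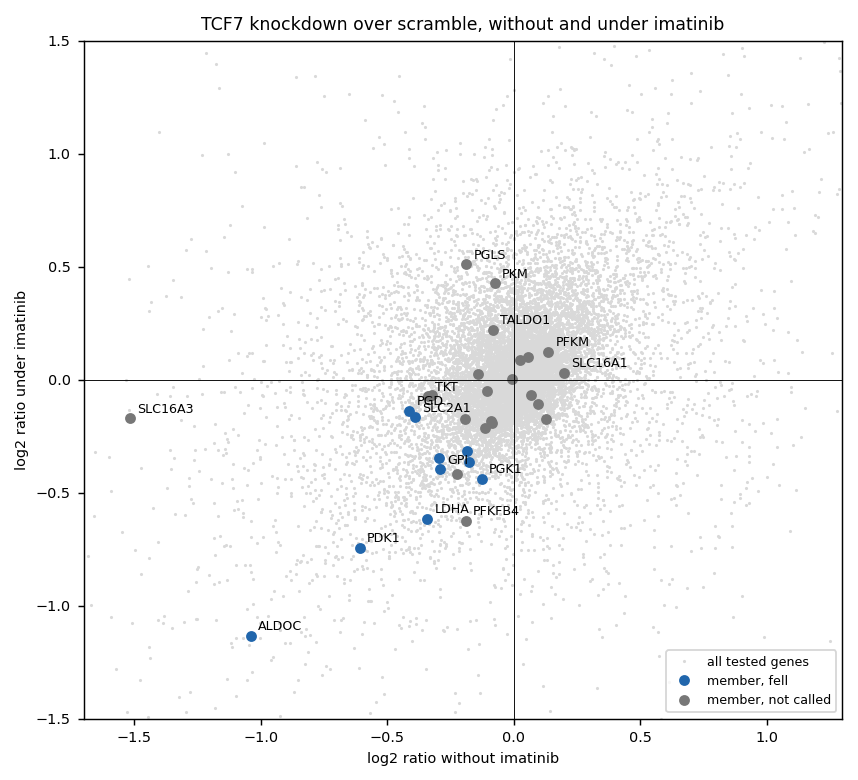
Log2 ratio of knockdown over scramble without imatinib (x axis) against that under imatinib (y axis), with each tested gene of the 2 pathways drawn over all tested genes, and points beyond the axes not drawn. Among the genes that fell, ALDOC lies lowest on both axes and PDK1 next to it, and LDHA follows them on the y axis.

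The 3 genes with the lowest adjusted p were ALDOC, PDK1 and LDHA. ALDOC (ENSG00000109107.13, chr17:28573115-28577264, minus strand, GRCh38) encodes aldolase C, the isozyme best known from brain, which splits fructose bisphosphate into 2 triose phosphates. It was at 76.2 CPM in untreated scramble cells and 36.8 CPM after knockdown, and at 71.2 and 32.01 CPM in the imatinib-treated pair. Both knockdown libraries lay below both scramble libraries. An antisense gene covers 10.1% of its exon bases. The log2 ratio was -1.04 (-1.14 to -0.94) without imatinib and -1.13 (-1.24 to -1.03) under it. In the edgeR fit ALDOC fell by 1.09 on the log2 scale (SE 0.0901, adjusted p = 7.35e-11).

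PDK1 (ENSG00000152256.13, chr2:172555373-172608669, plus strand) encodes pyruvate dehydrogenase kinase 1, which phosphorylates and inhibits the enzyme complex that feeds pyruvate into the mitochondrial citric acid cycle. It was at 170.9 CPM in untreated scramble cells and 111.4 CPM after knockdown, and at 143.9 and 84.8 CPM in the imatinib-treated pair. The knockdown libraries were the lower of each pair, and the groups did not overlap. PDK1 fell by 0.68 on the log2 scale (SE 0.0749, edgeR adjusted p = 4.67e-08), with ratios of -0.61 without imatinib and -0.74 under it.

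LDHA (ENSG00000134333.13, chr11:18394388-18408425, plus strand) encodes the lactate dehydrogenase subunit that prevails in glycolytic tissues. It was at 1106 CPM in untreated scramble cells and 868.1 CPM after knockdown, and at 936.4 and 602.6 CPM in the imatinib-treated pair. The level was lowest where both treatments met. LDHA fell by 0.48 on the log2 scale (SE 0.0733, edgeR adjusted p = 1.91e-05). The ratio was -0.34 (-0.36 to -0.32) without imatinib and -0.62 (-0.64 to -0.59) under it.

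Promoters of these 3 genes are shown because the core of the hypoxia response element, ACGTG, is a known control element of glycolytic genes. Each sequence is the 250 bases before an annotated start in RefSeq (GRCh38.p14), written 5′ to 3′ on the gene's strand, and capitals mark ACGTG on either strand, including overlapping matches. PDK1 and LDHA have 2 annotated starts each.
ALDOC, chr17:28576896-28577145, minus strand: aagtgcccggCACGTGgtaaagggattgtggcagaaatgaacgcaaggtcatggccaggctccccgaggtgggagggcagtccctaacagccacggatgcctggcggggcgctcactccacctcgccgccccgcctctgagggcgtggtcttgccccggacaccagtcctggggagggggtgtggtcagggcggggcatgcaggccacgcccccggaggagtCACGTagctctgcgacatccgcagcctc
PDK1, first window, chr2:172555123-172555372, plus strand: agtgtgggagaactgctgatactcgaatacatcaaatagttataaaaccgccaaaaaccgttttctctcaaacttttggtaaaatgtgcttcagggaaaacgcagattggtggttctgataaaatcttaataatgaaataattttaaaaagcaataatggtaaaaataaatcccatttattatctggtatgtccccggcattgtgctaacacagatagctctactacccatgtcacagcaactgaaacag
PDK1, second window, chr2:172555840-172556089, plus strand: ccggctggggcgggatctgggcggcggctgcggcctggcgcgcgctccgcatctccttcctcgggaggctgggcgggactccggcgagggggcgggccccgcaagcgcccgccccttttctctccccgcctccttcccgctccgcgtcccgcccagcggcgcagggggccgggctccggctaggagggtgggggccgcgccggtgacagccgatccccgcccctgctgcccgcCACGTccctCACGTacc
LDHA, first window, chr11:18394313-18394562, plus strand: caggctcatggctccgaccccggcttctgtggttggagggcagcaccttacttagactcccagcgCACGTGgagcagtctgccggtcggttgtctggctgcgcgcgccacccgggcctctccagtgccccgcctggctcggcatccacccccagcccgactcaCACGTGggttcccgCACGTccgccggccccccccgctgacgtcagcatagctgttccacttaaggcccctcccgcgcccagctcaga
LDHA, second window, chr11:18396101-18396350, plus strand: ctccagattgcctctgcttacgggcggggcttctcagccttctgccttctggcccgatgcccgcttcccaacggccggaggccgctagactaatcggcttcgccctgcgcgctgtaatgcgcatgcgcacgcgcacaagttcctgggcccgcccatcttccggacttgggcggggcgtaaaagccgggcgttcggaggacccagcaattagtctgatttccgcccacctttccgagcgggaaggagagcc
The ALDOC window held 3 matches, of which 2 overlap in the palindrome CACGTG at 240 to 235 bases before the start. The second PDK1 window held 2, both within 17 bases of the start, and the first held 0. The first LDHA window held 5 matches, including overlapping pairs in 2 CACGTG palindromes, and the second held 0.

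Across the pathway genes, 30 of the 33 had at least 1 such window, 57 windows in all. ACGTG on either strand was found in 19 of the 57 windows (33.3%), against 18.5% of all 35116 windows. It was found in at least 1 window of 8 of the 9 genes with a window that fell in the knockdown, and of 7 of the 20 that were not called. Over all tested genes with a window it was found for 33.2% of those that fell and 29.1% of those not called. CACGTG, the E-box bound by MYC and related factors, which itself contains ACGTG, was found in 10.5% of the windows against 6.3% of all. It was found for 4 of the 9 genes that fell and 2 of the 20 not called, against 13.9% and 11.2% of all tested genes with those calls. The TCF/LEF letters CTTTGAT and CTTTGAA were found in 0 of the 57 windows, against 2.3% and 3.8% of all. The GC box GGGCGG was found in 63.2% of the windows against 42.6% of all. Per gene, 8 of the 9 that fell and 18 of the 20 not called had it. Over all tested genes with a window and those calls, 82.6% and 74.7% did. The antioxidant response letters TGACNNNGC were found in 12.3% against 10.9%. The windows were also richer in GC, with a median of 68.4% against 58.0% of all windows, and a part of base composition in the motif shares was not tested. A match describes letters only.

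Glucose enters cells through carriers of the SLC2A family. SLC2A1, which encodes the widespread carrier GLUT1 (ENSG00000117394.20, chr1:42925375-42959176), was at 129.2 CPM in untreated scramble cells and 98.0 CPM after knockdown, and at 157.9 and 138.7 CPM in the imatinib-treated pair. The untreated knockdown library was the lowest, and the groups overlapped, with higher levels under imatinib in both cultures. SLC2A1 fell by 0.28 on the log2 scale with knockdown (SE 0.0759, edgeR adjusted p = 0.0184). SLC2A3, which encodes the high-affinity carrier GLUT3 (ENSG00000059804.15, chr12:7919230-7936275), was at 257.2, 225.0, 263.6 and 209.0 CPM in the same order. Both knockdown libraries were below both scramble libraries, and SLC2A3 fell by 0.25 (SE 0.0707, edgeR adjusted p = 0.0237).

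Hexokinases trap glucose in the cell by phosphorylation. HK2, the inducible isozyme common in tumours (ENSG00000159399.9, chr2:74833981-74893359), was at 126.7 CPM in untreated scramble cells and 111.6 CPM after knockdown, and at 133.2 and 102.1 CPM in the imatinib-treated pair. It fell by 0.27 (SE 0.076, edgeR adjusted p = 0.023). HK1, the widespread isozyme, was at 603.3, 611.0, 601.3 and 629.3 CPM and was not called (edgeR adjusted p = 0.733), so the isozymes differed in call, but the difference between them was not tested. GPI, which interconverts glucose and fructose phosphates (ENSG00000105220.14, chr19:34359480-34402413), was at 310.0, 251.8, 321.7 and 241.2 CPM and fell by 0.34 (SE 0.07, edgeR adjusted p = 0.00116).

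The next step, phosphofructokinase, commits sugar to glycolysis. None of its 3 genes was called for knockdown. PFKP, the platelet type, was at 74.3, 59.0, 77.1 and 72.5 CPM (scramble then knockdown, untreated pair before treated pair), with ratios of -0.32 and -0.07 (edgeR adjusted p = 0.184). PFKL, the liver type, lay between 73.2 and 98.4 CPM, with ratios of -0.14 and 0.03. PFKM, the muscle type, lay between 29.7 and 33.3 CPM, with ratios of 0.14 and 0.12. The 3 PFKFB genes encode the bifunctional enzymes that make and break fructose 2,6-bisphosphate, the main activator of phosphofructokinase. All 3 were lower in both knockdown libraries than in both scramble libraries, and none was called. PFKFB4 was at 16.9 and 14.7 CPM without imatinib and at 19.2 and 12.2 CPM under it (log2 ratios -0.19 and -0.62, edgeR adjusted p = 0.0785). PFKFB3 lay between 21.6 and 29.2 CPM, with ratios of -0.22 and -0.42 (adjusted p = 0.0892). PFKFB2 lay between 31.7 and 37.1 CPM, with ratios of -0.09 and -0.18 (adjusted p = 0.509).

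Aldolase A, the main muscle and red cell isozyme, is encoded by ALDOA (ENSG00000149925.17, chr16:30064164-30070457). It was at 698.6 CPM in untreated scramble cells and 566.2 CPM after knockdown, and at 795.3 and 617.6 CPM in the imatinib-treated pair. Each knockdown library was lower than both scramble libraries, and ALDOA fell by 0.32 (SE 0.0691, edgeR adjusted p = 0.0022). In GENCODE 29, 42.3% of its exon bases are shared with the gene AC093512.2 on the same strand, so its count is uncertain. TPI1, which interconverts the triose phosphates, was at 269.7 and 266.9 CPM without imatinib and at 332.2 and 327.9 CPM under it, and was not called for knockdown (adjusted p = 0.99).

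Of the 7 enzymes that take triose phosphate to pyruvate, 1 fell. It was PGK1, an ATP-yielding kinase on the X chromosome (ENSG00000102144.13, chrX:77910739-78129296). It was at 491.8 CPM in untreated scramble cells and 447.9 CPM after knockdown, and at 451.2 and 328.3 CPM in the imatinib-treated pair, and fell by 0.28 (SE 0.0737, edgeR adjusted p = 0.0124). The library with both treatments stood below the other 3, while the other knockdown library and the treated scramble library were close, and their order differs between CPM and TMM-normalised values. GAPDH, at 1426, 1318, 1626 and 1547 CPM, was not called (adjusted p = 0.602), and 62 pseudogenes in GENCODE 29 carry its name, so its count is uncertain. In all, 15 of the 33 genes have pseudogenes of their name, and how shared reads were counted is not given in these sources.

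ENO1, the widespread enolase, was at 1491, 1296, 1643 and 1439 CPM (scramble then knockdown, untreated pair before treated pair). Both knockdown libraries were lower than both scramble libraries, and the gene was not called (edgeR adjusted p = 0.117). PGAM1, a mutase at 160.5 to 188.6 CPM, was also lower in both knockdown libraries, with ratios of -0.11 and -0.21 (adjusted p = 0.194). ENO2, the neuronal enolase, stayed between 16.9 and 17.9 CPM and ENO3, the muscle enolase, between 5.61 and 6.42 CPM.

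PKM encodes the pyruvate kinase whose splice forms distinguish the enzyme of muscle from that of proliferating cells. It was at 633.9 CPM in untreated scramble cells and 598.6 CPM after knockdown, and at 630.8 and 837.2 CPM in the imatinib-treated pair (ENSG00000067225.17, chr15:72199029-72231822). Only the library with both treatments was high. The knockdown ratio was -0.07 (-0.10 to -0.05) without imatinib and 0.43 (0.40 to 0.45) under it, and PKM was not called for knockdown (edgeR adjusted p = 0.214).

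Beyond pyruvate, 2 of the 5 tested genes fell, LDHA and PDK1. LDHB, the subunit that prevails in oxidative tissues (ENSG00000111716.12, chr12:21635342-21757857), was at 782.9, 831.1, 674.2 and 617.1 CPM (scramble then knockdown, untreated pair before treated pair), and was not called for knockdown (edgeR adjusted p = 0.976). In GENCODE 29, 33.4% of its exon bases are shared with AC010197.2 on the same strand. SLC16A1, the widespread monocarboxylate carrier MCT1, was at 285.6 and 326.1 CPM without imatinib and 266.7 and 268.8 CPM under it, and was not called (adjusted p = 0.393). SLC16A3, the lactate exporter MCT4, was low, with 94, 29, 75 and 61 counts (2.84, 0.947, 2.20 and 1.92 CPM). Its ratio of -1.51 (-2.23 to -0.96) without imatinib was followed by -0.17 under imatinib (adjusted p = 0.194). PDK3, a further kinase of pyruvate dehydrogenase, had 1, 0, 8 and 0 counts and was not tested. A count of 0 allows up to 3 counts, or 0.0979 CPM in the knockdown library and 0.0945 CPM with imatinib.

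In the pentose phosphate pathway 1 of 6 genes fell. PGD, the dehydrogenase of 6-phosphogluconate that yields NADPH (ENSG00000142657.20, chr1:10398592-10420144), was at 385.8 CPM in untreated scramble cells and 288.1 CPM after knockdown, and at 408.8 and 366.5 CPM in the imatinib-treated pair. It fell by 0.28 (SE 0.0727, edgeR adjusted p = 0.0139), with ratios of -0.41 without imatinib and -0.14 under it. The 2 transferases of the reversible branch link pentoses back to glycolysis, and neither was called for knockdown. TKT, transketolase, was at 336.1 and 264.3 CPM untreated and at 378.6 and 355.2 CPM under imatinib (ratios -0.34 and -0.07, adjusted p = 0.0852). TALDO1, transaldolase, was at 146.7 and 138.0 CPM untreated and at 155.9 and 179.1 CPM under imatinib (ratios -0.08 and 0.22, adjusted p = 0.687). PGLS, the lactonase that acts before PGD, had ratios of -0.19 and 0.51 and was not called. RPIA and RPE, which interconvert the pentose phosphates, lay between 36.9 and 45.7 CPM and between 80.5 and 94.5 CPM, and were not called. In GENCODE 29, 23.8% of the exon bases of RPE lie opposite exons of KANSL1L.

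DESeq2 called 5 of the 10 genes lower (GPI, ALDOA, ALDOC, LDHA and PDK1), and limma called 3 (ALDOC, LDHA and PDK1). Offsets were also fitted for a trend of the counts with the GC content and length of the longest transcript. With them, all 10 fell and PFKP, PFKFB3, PFKFB4, PGAM1, ENO1 and TKT fell too. Thus 16 genes fell and 0 rose, against 6.31% and 5.91% of all genes (12.2% in both directions). A library can be left out only without the imatinib term, and that edgeR fit on 4 libraries called 0 of the 32 genes lower, with 6 at an unadjusted p under 0.05. On 3 libraries it called 0 of the 32 genes lower without the untreated scramble library and 5 without the untreated knockdown library. It called 1 without the treated scramble library (ALDOC) and 4 without the treated knockdown library.

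The share of all counts taken by the 33 genes weighs highly expressed genes most, among them ENO1 and GAPDH, which were not called for knockdown. In the untreated pair this share was 1.034% in scramble cells (95% Clopper-Pearson interval 1.03 to 1.037) and 0.922% after knockdown (0.919 to 0.926). In the imatinib-treated pair it was 1.065% (1.061 to 1.068) and 0.952% (0.949 to 0.956). It was lower in each knockdown library than in its scramble partner. The genes acting on pyruvate and lactate took 0.235%, 0.214%, 0.202% and 0.158% in the same order, lowest with both treatments, and the pentose phosphate genes 0.101%, 0.0834%, 0.109% and 0.105%.

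Isozyme composition was compared per length from the authors' FPKM-scaled values. ALDOC made up 18.6% of the aldolase A and C total in untreated scramble cells and 12.02% after knockdown, and 15.8% and 9.82% in the imatinib-treated pair. The fraction was therefore lowest in the knockdown libraries. LDHA made up 40.4% of the LDHA and LDHB total in untreated scramble cells and 33.4% after knockdown, and 40.02% and 31.9% in the imatinib-treated pair. The scramble libraries were alike, and both knockdown libraries lay below them. HK2 made up 17.4%, 15.5%, 18.2% and 13.97% of the hexokinase total. SLC2A1 made up 39.6%, 36.2%, 43.9% and 46.4% of the glucose carrier total, higher under imatinib. ENO1 made up at least 98.3% of the enolases in every library. The length the authors' values imply matched the GENCODE 29 exon length for 25 of the 33 genes and differed for 8, ALDOA among them, so the aldolase fractions depend on it. On raw counts without length, LDHA made up 58.5% and 51.1% in the untreated pair and 58.1% and 49.4% in the treated pair. ALDOC made up 9.83% and 6.11%, and 8.22% and 4.93%, so the size of a fraction depends on the scale while its order between these libraries does not. Fractions have no test.

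**Figure D3:**
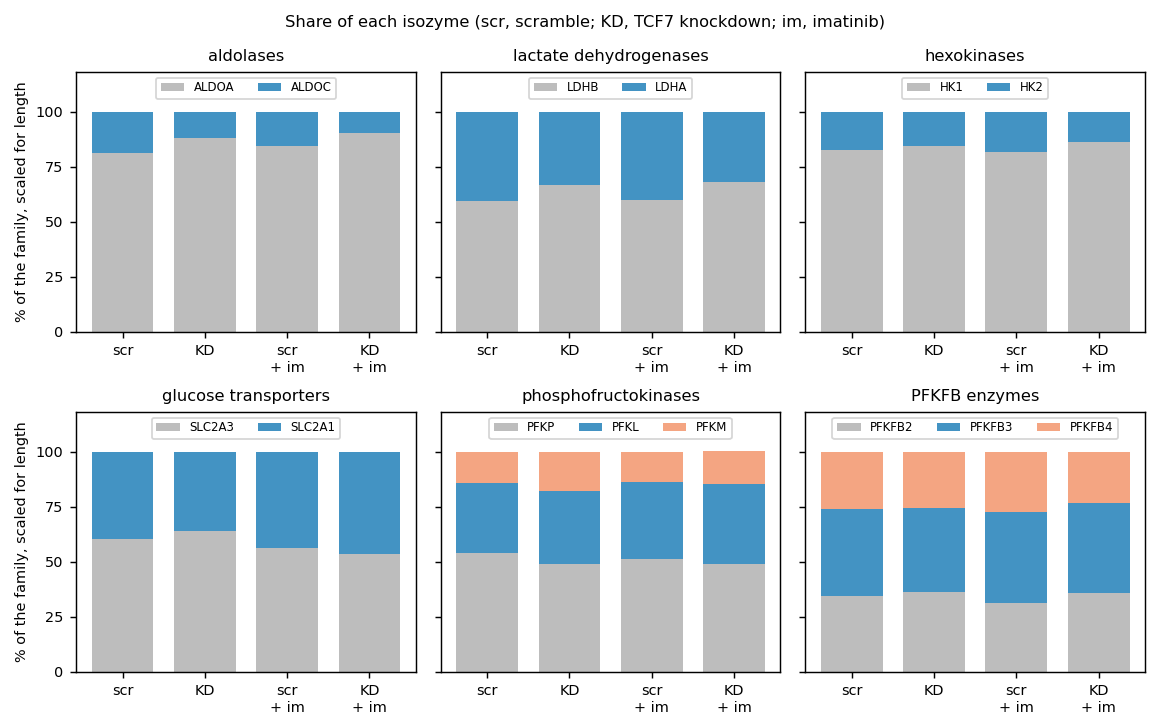
Percent of each family's summed FPKM-scaled value that each isozyme made up in each of the 4 libraries. ALDOC and LDHA take smaller fractions in the 2 knockdown libraries than in the 2 scramble libraries.

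Imatinib was the second factor. Of the 32 tested genes, 9 rose, 5 fell and 18 were not called, against 20.9% of all tested genes called, 13.8% higher and 7.08% lower. The 9 were SLC2A1, PFKL, TPI1, GAPDH, PKM, PGLS, PGD, TKT and TALDO1, 4 of them from the pentose phosphate pathway. The 5 were PGK1, LDHA, LDHB, SLC16A1 and PDK1, 4 of them acting on pyruvate and lactate. DESeq2 did not call GAPDH, PKM, PGD, TALDO1 or SLC16A1 for imatinib. PKM had an imatinib ratio of -0.02 for scramble and 0.48 for knockdown, and PGD had 0.07 and 0.34. On TMM-normalised values, both imatinib libraries were above both untreated ones for 8 genes, against 27.9% of all tested genes, and below them for 4, against 26.4%. The ratio was above 0 in both cultures for 13 genes, against 36.9%, and below 0 in both for 8, against 37.5%. In scramble cells 0 genes were 1.5-fold or more higher, against 4.4%, and in knockdown cells 2 were (PGLS and SLC16A3), against 11.7%. In either culture 0 were lower by that much, against 2.37% and 3.74%. Among genes with a mean of 100 CPM or more, 7 of 19 rose and 5 fell, against 12.4% and 19.4% of all genes at that level. Of the 11 markers of K562, 5 rose and 4 fell with imatinib, and their part in these results was not tested.

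These calls followed GC content. The genes that rose had 52.9% to 64.1% GC in their longest transcript, and those that fell had 39.8% to 46.5%. Over the 32 genes the Spearman correlation of GC with the imatinib ratio was 0.54 for scramble and 0.65 for knockdown, and over 10095 genes it was 0.68 and 0.75. These correlations are across genes, which share the same libraries and are not independent replicates. With offsets for GC and length, 1 gene rose (SLC2A1) and 4 fell (PGK1, LDHA, LDHB and ALDOC), against 4.75% of all genes, 2.29% higher and 2.45% lower. The median imatinib ratio over the 32 genes, 0.05 for scramble and 0.03 for knockdown, became -0.03 and -0.12 once the trend was removed. Without the imatinib-treated scramble library and the knockdown term, 2 genes were called higher and 3 lower, and leaving out any other library left 0 called. Whether the trend is technical was not tested.

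**Figure D4:**
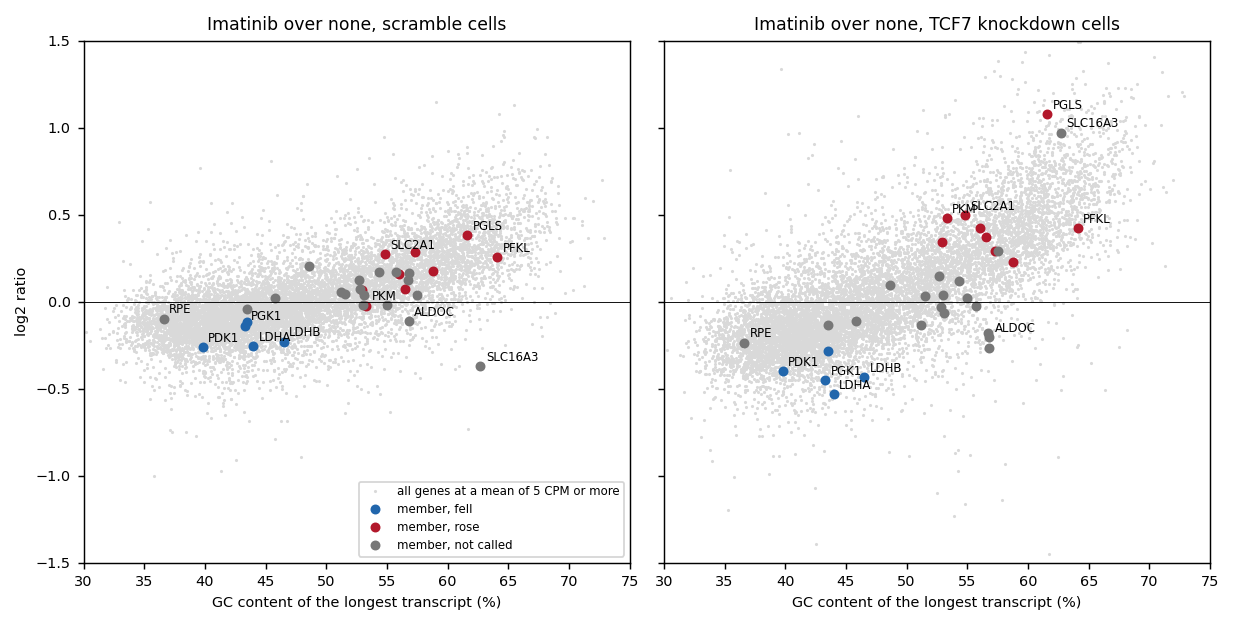
Log2 ratio of imatinib over untreated against the GC content of the exons in percent, in scramble and in knockdown cells, with the tested genes of the 2 pathways drawn over all genes. Genes richer in GC lie higher in both panels, and points beyond the axes are not drawn.

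The genes with an imatinib call with and without the offsets were SLC2A1, PGK1, LDHA and LDHB. SLC2A1 rose by 0.38 (SE 0.0759, edgeR adjusted p = 0.000422), and by 0.19 with offsets (adjusted p = 0.0413). LDHA fell by 0.39 (SE 0.0733, edgeR adjusted p = 0.000222), with ratios of -0.25 for scramble and -0.53 for knockdown. LDHB fell by 0.33 (SE 0.0712, edgeR adjusted p = 0.00101), with ratios of -0.23 and -0.43. Both lactate dehydrogenase subunits were thus lower under imatinib in each culture. PGK1 fell by 0.29 (edgeR adjusted p = 0.00418), with ratios of -0.14 and -0.45. ALDOC, called only with the offsets, had ratios of -0.11 and -0.21 (edgeR adjusted p = 0.215 without them).

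PDK1 and SLC16A1 were called lower only without offsets, with edgeR adjusted p = 0.00173 and 0.042. The PDK1 fold change was 0.02 in both fits on 3 libraries that lacked an untreated scramble or a treated knockdown library. Those fits had no knockdown term, so the knockdown difference can enter that value. The remaining 8 genes that rose lost the call with offsets. PGLS had the largest increase of these, at 13.4 CPM in untreated scramble cells and 11.7 CPM after knockdown, and at 17.7 and 24.9 CPM in the imatinib-treated pair. It rose by 0.73 (SE 0.147, edgeR adjusted p = 0.000493), and had an adjusted p of 0.121 with offsets. GAPDH and PFKL turned to -0.12 and -0.16 with offsets.

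For several genes the knockdown ratio under imatinib lay apart from that without it. The difference is the first minus the second, and it has no test, because 4 libraries leave no replicate for it. Its exact conditional interval covers counting error only. Over the 32 genes the median was -0.07, with 18 below 0, against a median of 0.02 and 47.5% below 0 over all tested genes. The interval lay wholly below 0 for 12 genes and wholly above 0 for 11, and the share over all tested genes was not computed. At high counts it excludes 0 for small differences, as for GAPDH at 0.05 (0.03 to 0.08). Over all tested genes the difference had an SD of 0.41, a spread that includes genes of low counts.

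The pentose phosphate genes lay higher on this scale, with a median of 0.27, and 0.16 with the GC and length trend removed. RPE lay at -0.14 (-0.24 to -0.03) and RPIA at -0.11 (-0.27 to 0.05). For the other 4 of the 6 the interval lay above 0, PGLS at 0.70 (0.44 to 0.96), TALDO1 at 0.30 (0.22 to 0.38), PGD at 0.27 (0.22 to 0.33) and TKT at 0.27 (0.21 to 0.32). PKM had 0.50 (0.46 to 0.54), and 0.41 with the trend removed. PFKFB4 had -0.43 (-0.70 to -0.18), PGK1 had -0.31 (-0.36 to -0.26) and LDHA had -0.28 (-0.31 to -0.24). The largest value, 1.34 (0.58 to 2.23) for SLC16A3, rests on 29 to 94 counts. Knockdown and imatinib ratios share libraries, so their values are not independent.

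**Figure D5:**
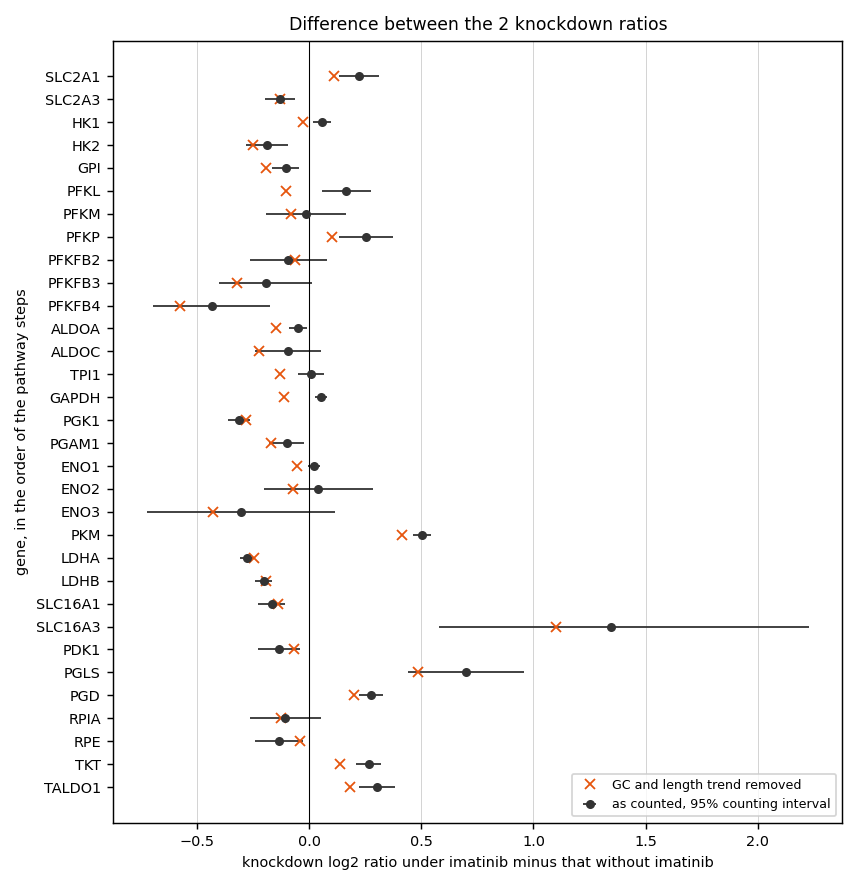
Difference between the knockdown log2 ratio under imatinib and that without imatinib for each tested gene, with the 95% interval for counting error. PKM and the pentose phosphate genes PGLS, TALDO1, PGD and TKT lie above 0, and LDHA, PGK1 and PFKFB4 lie below it.

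With both treatments against neither, 3 genes were lower by 1.5-fold or more, against 6.17% of all tested genes, and 1 was higher, against 11.6%. The 3 were ALDOC at -1.25, PDK1 at -1.01 and LDHA at -0.87, and the gene that was higher was PGLS at 0.89. This comparison shares its libraries with the others.

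Further genes of the pathways and their neighbours were read from fixed lists. Their counts stand against 3.8% of all tested genes called higher and 3.34% called lower with knockdown. Of 9 tested further glycolytic isozymes and carriers, 1 rose with knockdown and 1 fell. BSG, the chaperone of the lactate carriers, rose by 0.28 (edgeR adjusted p = 0.00736) from 307.9 to 370.8 CPM without imatinib and from 348.5 to 418.7 CPM under it. PGM2, a phosphoglucomutase, fell by 0.26 (adjusted p = 0.0364). DERA, an aldolase of deoxyribose phosphate, rose with knockdown by 0.58 (adjusted p = 0.044), and was 1 of 8 further pentose phosphate genes tested.

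Of 16 further tested genes around pyruvate dehydrogenase, 2 rose with knockdown and 1 fell. The 2 were the kinases PDK2 and PDK4, whereas PDK1 fell. PDK2 was at 1.09 CPM in untreated scramble cells and 3.72 CPM after knockdown, and at 0.821 and 1.70 CPM in the imatinib-treated pair (edgeR adjusted p = 0.0106). PDK4 was at 0.573, 2.15, 0.851 and 2.33 CPM (adjusted p = 0.00535). Both were near the filter. ME1, the cytosolic malic enzyme that makes NADPH, fell by 0.63 (SE 0.0769, adjusted p = 3.55e-07) from 137.0 to 83.5 CPM without imatinib and from 120.6 to 81.6 CPM under it.

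Among 16 tested regulators of sugar metabolism, 2 rose with knockdown and 1 fell. TXNIP, an inhibitor of glucose uptake, was at 127.7, 172.2, 139.5 and 158.9 CPM and rose by 0.32 (edgeR adjusted p = 0.00447). EPAS1, which encodes the hypoxia factor HIF-2 alpha, rose by 0.45 (adjusted p = 0.00415). EGLN1, the oxygen-sensing prolyl hydroxylase that marks HIF proteins for breakdown, fell by 0.58 (adjusted p = 9.74e-05) from 52.0 to 37.2 CPM without imatinib and from 48.7 to 30.02 CPM under it. HIF1A (adjusted p = 0.514) and MYC (adjusted p = 0.824) were not called for knockdown. Of 9 tested genes of gluconeogenesis and glycogen, GYG1, the primer of glycogen synthesis, fell by 0.35 with knockdown (adjusted p = 0.0327). BPGM, the red cell mutase that makes bisphosphoglycerate, was not called (adjusted p = 0.448). Of the genes named here as changed with knockdown, DESeq2 called BSG, ME1 and EGLN1. It did not call PDK2 (adjusted p = 0.265), PDK4 (0.197), DERA (0.494), PGM2 (0.328), TXNIP (0.0724), EPAS1 (0.117) or GYG1 (0.369).

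Imatinib calls in these lists were mostly increases, as were those of all tested genes, of which 13.8% were called higher and 7.08% lower. Among those that rose were 1 of 9 further glycolytic genes (PGAM5), 2 of 16 genes around pyruvate dehydrogenase (PC and PCK2), 3 of 9 genes of gluconeogenesis and glycogen (G6PC3, GYS1 and PYGB) and 3 of 16 regulators (MYC, MLXIP and EPAS1). PRPS2, a synthetase of phosphoribosyl pyrophosphate, fell by 0.22 (edgeR adjusted p = 0.0398). MYC, a transcription factor that drives many glycolytic genes, was at 339.3 and 343.6 CPM untreated and 412.7 and 421.9 CPM under imatinib, and rose by 0.28 (adjusted p = 0.00362). PCK2, the mitochondrial carboxykinase that makes phosphoenolpyruvate, rose by 0.61 (adjusted p = 0.00211). With offsets for GC and length, the calls that stayed were G6PC3, a glucose phosphatase, at 0.49 and EPAS1 at 0.29. DESeq2 called PGAM5, PCK2, G6PC3, PYGB and MYC, and did not call PC, GYS1, MLXIP, EPAS1 or PRPS2.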

How the data were processed

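Per the labels' protocols, ribosomal RNA was removed from total RNA and a directional kit was used for the 4 libraries. GRCh38, HISAT2, FastQC and HTSeq 0.6.1 appear in the submitters' processing notes. Neither an annotation release nor the strand setting is given in these sources, so overlapping genes are uncertain. The authors deposited whole-number read counts per gene, per the file headers, and these were used as deposited. The FPKM columns deposited by the authors were treated as a score, because 6 genes have negative values. They served only for isozyme fractions, implied gene lengths, limma and an alternative for the median log2 ratios.

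Counts were fitted with edgeR 4.0.16 in R 4.3.3 (TMM, additive design of knockdown and imatinib, 1 residual degree of freedom, prior degrees of freedom 33.8, common biological coefficient of variation 0.0783). Genes at 1 CPM or more in 2 libraries were kept, and Benjamini-Hochberg adjustment ran over all 13296. The alternatives were DESeq2 1.42.0, limma 3.58.1 on log2 of the score + 0.1, other normalisations and filters, a prior count of 0.5, and offsets for a smooth trend over GC content and exon length (mgcv 1.9.3, genes at 5 CPM or more, 13255 genes with both). Positions, GC content and lengths came from GENCODE 29 on GRCh38. Reads are not independent molecules, so intervals and floors cover counting error alone.

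Groups came from the labels. Named genes were all 33 genes of the 2 pathways, the called genes of the other pathway lists, up to 6 a list with the largest fold change, and BPGM, TXNIP, HIF1A and MYC. Results of some genes on these lists are not reported here. The genes and lists were chosen with earlier results of these data known.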

Additional observations from a re-analysis of the deposited data

Results flagged for a closer look

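For 4 genes the ratio of 1 factor had opposite signs in the 2 states of the other, with both counting intervals excluding 0. The share of all tested genes with such ratios was not computed, and at high counts the intervals exclude 0 for small ratios. The differences were not tested, since each state has 1 library per group. PKM had a knockdown log2 ratio of -0.0742 without imatinib and 0.43 under it. LDHB had a knockdown ratio of 0.0946 without imatinib and -0.11 under it, so that it was lower only in the imatinib-treated pair. TALDO1, the transaldolase of the pentose phosphate pathway, had a knockdown ratio of -0.0804 without imatinib and 0.22 under it. PFKFB4, a bifunctional enzyme of fructose bisphosphate signalling, had an imatinib ratio of 0.17 for scramble and -0.27 for knockdown. With the GC and length trend removed, PFKFB4 no longer had opposite signs, at -0.0173 for scramble and -0.597 for knockdown. The other 3 genes still did, PKM at -0.069 and 0.34, LDHB at 0.0488 and -0.14, and TALDO1 at -0.0987 and 0.0828.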

How the results depend on the processing

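No paired analysis was possible because the labels carry no replicate numbers and each group has 1 library, beyond the imatinib or knockdown term that the design already holds. The count of genes called for knockdown, 949, became 272 in DESeq2, 195 in limma and 1620 with offsets for GC and length. It became 0 with the imatinib term left out, and 34 to 759 with 1 library left out as well. The pathway genes called lower, 10, became 5, 3, 16, 0 and 0 to 5 in the same settings, and those called higher, 0, became 0 to 2 with a library left out. The count for imatinib, 2780, became 1003 in DESeq2, 1094 in limma, 629 with offsets, 0 without the knockdown term and 0 to 579 with a library left out as well. Of the pathway genes, the 9 called higher became 5, 3, 1, 0 and 0 to 2 in the same settings, and the 5 called lower became 2 in limma, 0 without the knockdown term and 0 to 3 with a library left out. With the GC and length trend removed, the median knockdown ratio under imatinib was -0.24, and the median imatinib ratio turned to -0.03 for scramble and -0.12 for knockdown. The cause was not tested.

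None of the 10 genes that fell with knockdown changed direction in any alternative. Other fold changes did, among them those of PFKL and GAPDH, which rose with imatinib, and of PDK1, which fell with it. For knockdown, TPI1 was at 0.000479 without the filter, LDHB at 0.00487 without the imatinib term and TALDO1 at -0.0124 with offsets. RPE was at -0.0035 with DESeq2 size factors, -0.0131 with total counts, -0.017 with a filter of 5 CPM, -0.00362 in DESeq2 and -0.0133 in limma. For imatinib with offsets, the values were 0.00308 for SLC2A3, -0.127 for HK1, -0.16 for PFKL, -0.0583 for PFKM, -0.116 for PFKP, 0.0173 for PFKFB2, -0.14 for PFKFB3, -0.0277 for ALDOA, -0.117 for GAPDH, -0.102 for PGAM1, -0.207 for SLC16A3 and 0.00879 for RPE. ENO2 was at 0.00954 with total counts, 0.0132 with a filter of 5 CPM, 0.00936 in limma and 0.00047 without the knockdown term. With 1 library left out, the term for the other factor was dropped too. Such a fit is unbalanced, so that factor's effect can enter its fold changes. In these fits, 10 genes changed direction for knockdown in at least 1 fit. Their log2 fold changes ranged from -0.125 to 0.0716 for ENO3, -0.189 to 0.0216 for GAPDH, -0.238 to 0.213 for LDHB, -0.266 to 0.138 for PFKL, -0.386 to 0.679 for PGLS, -0.0559 to 0.407 for PKM, -0.128 to 0.125 for RPE, -0.0373 to 0.263 for SLC16A1, -0.11 to 0.245 for TALDO1 and -0.15 to 0.147 for TPI1. For imatinib 15 did, and the ranges were -0.0337 to 0.32 for ALDOA, -0.819 to 0.471 for ALDOC, -0.0431 to 0.0497 for ENO2, -0.116 to 0.0675 for ENO3, -0.219 to 0.184 for GPI, -0.0264 to 0.0518 for HK1, -0.224 to 0.148 for HK2, -0.735 to 0.0213 for PDK1, -0.179 to 0.0108 for PFKFB2, -0.139 to 0.285 for PFKFB3, -0.367 to 0.267 for PFKFB4, -0.0303 to 0.113 for PFKM, -0.0877 to 0.133 for PGAM1, -0.459 to 1.11 for SLC16A3 and -0.206 to 0.117 for SLC2A3.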
